A study of Mus musculus with 77 samples.

Results

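Direct pathway spiny projection neurons (dSPN) of dopamine-depleted, high-dose levodopa mice were set against dSPN of mice whose dopamine input had been left in place. The arrays were chosen by their source labels, and 21 of the 77 arrays in the series belong to this comparison. Of these, 11 came from mice given the toxin 6-hydroxydopamine (6-OHDA) and then chronic high-dose levodopa, and 10 from mice given a mock lesion of ascorbate in saline and then chronic saline. The question was which transcripts end above or below the unlesioned level after treatment, and which come back to it. The groups differ both in the lesion and in the drug, so a difference between them cannot be assigned to either alone.

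All mice of both groups were hemizygous for the Drd1::EGFP-L10a BAC transgene on a C57BL/6J background, male, and 9 to 14 weeks old. The Drd1 promoter of the transgene drives a green fluorescent ribosomal protein in dSPN, and translating ribosome affinity purification (TRAP) pulls down the messenger RNA bound to those tagged ribosomes. Each array holds RNA from the dorsal striatum of a single mouse, on the side of the injection, and the toxin or the vehicle had been placed in the medial forebrain bundle on that 1 side. High-dose mice were selected for a successful lesion and injected daily from 3 weeks after surgery. They received levodopa at 3 mg/kg for days 1 to 3, then at 6 mg/kg until day 9, each time with 12 mg/kg benserazide, a regimen meant to bring on severe dyskinesia. Mock-lesioned mice were handled alike and injected with saline. Striatum was taken right after the last behavioural test, and no label states the time since the last injection. The other dSPN arrays, 11 from lesioned mice on saline and 12 from lesioned mice on the low dose (1 and then 2 mg/kg), and the 18 high-dose and mock-lesion arrays of the indirect pathway neurons (iSPN, Drd2::EGFP-L10a) are used only where named.

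Dopamine acts on dSPN through the D1 receptor, which raises cyclic AMP, activates protein kinase A and reaches the MAP kinase cascade and the transcription factor CREB. In rodents with dopamine depletion these neurons become hypersensitive to D1 stimulation, and levodopa then drives immediate early genes and prodynorphin in them, a response studied as a correlate of levodopa-induced dyskinesia. Immediate early genes encode transcription factors and synaptic proteins whose transcription starts within minutes of a stimulus without new protein synthesis.

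The values are log2 expression levels per probe set on the Affymetrix mouse 430 2.0 array, and a level is comparable between samples but not between genes. Each array correlated with its own group with a median r of 0.9811 to 0.984 in the high-dose group and 0.9838 to 0.9867 in the mock-lesion group. Changes are high dose minus mock lesion on the log2 scale, with the standard error (SE) of a limma fit across 13271 genes, and a gene was called at a Benjamini-Hochberg adjusted p under 0.05. The number of arrays limits the precision, and the median SE was 0.151. Samples were also assigned to runs, sequences of title numbers in order over which the animal numbers ascend. Some title numbers are absent from the series, and the labels do not state what a run means. Only run 3 holds both groups, with 2 arrays of each; run 2 holds the other 9 high-dose arrays, and runs 1 and 4 hold 4 mock-lesion arrays each. Results are therefore read beside a fit with run as a block and beside run 3 alone.

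The purified RNA was dSPN-like in both groups. The mean level over 14 dSPN marker genes was 9.44 to 9.69 on the high-dose arrays and 9.52 to 9.74 on the mock-lesion arrays, against 7.44 to 7.96 on mock-lesion iSPN arrays. Over 12 iSPN markers it was 5.49 to 6.36 at the high dose and 6.12 to 6.35 after mock lesion, against 9.17 to 9.83 in mock-lesion iSPN.

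High-dose dSPN stood far from unlesioned dSPN. Of the 13271 genes, 5764 were called (43.4%), 2440 higher (18.4%) and 3324 lower (25%) at the high dose, and 1242 (9.36%) differed over 2-fold, 579 higher (4.36%) and 663 lower (5%). No array of a group reached into the range of the other for 1473 genes (11.1%). The rises reached further than the falls: the furthest gene above was Nr4a2 at 5.88 and the furthest below was Ddit4l at -3.01. Among the 5764 called genes, 5762 kept their sign and 3775 their call with run as a block, where 3910 of all genes were called (29.5%). In run 3 alone 5650 kept their sign and 275 their call, where 286 of all genes were called (2.16%). Both fits reuse arrays on which these genes were called, so the kept signs are no independent check.

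**Figure D1:**
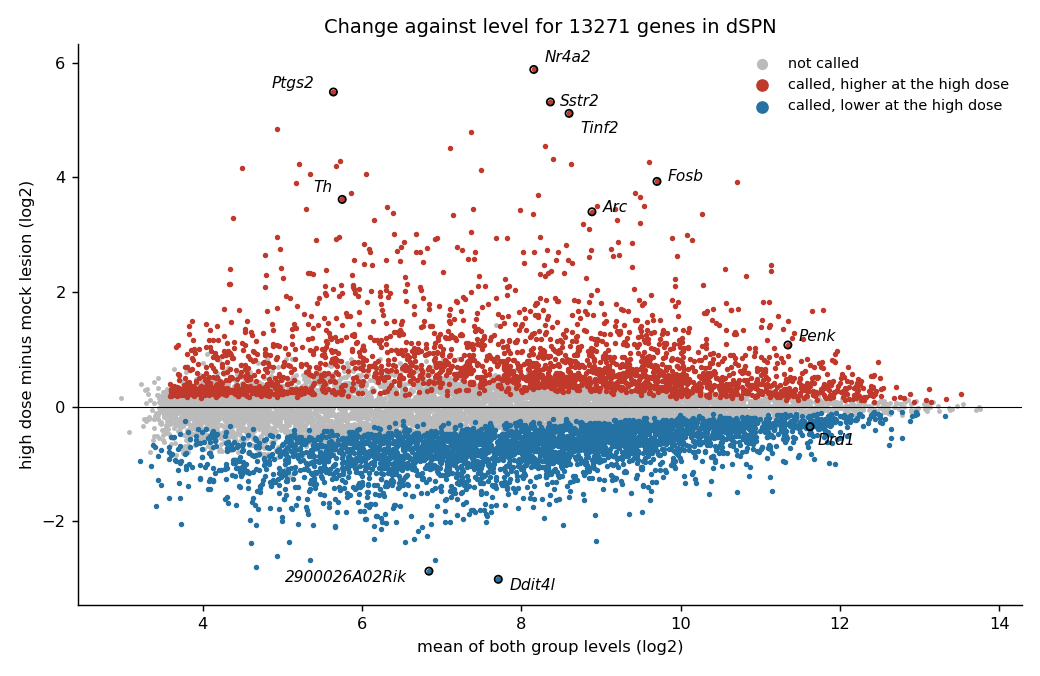
Difference between high-dose and mock-lesion dSPN (log2, y axis) against the mean of both group levels (log2, x axis) for each of 13271 genes, with called genes in red (higher at the high dose) and blue (lower). Rises reach 5.88 (Nr4a2), falls stop at -3.01 (Ddit4l), and Drd1 lies at -0.35.

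The 12 highest changes included members of the immediate early list (Nr4a2 and Nr4a3) and of the activity-effector list (Ptgs2 and Sstr2). Nr4a2 (Nurr1), an orphan nuclear receptor encoded by an immediate early gene, had a lowest, median and highest level of 10.50, 11.14 and 11.36 at the high dose, against 4.27, 5.05 and 6.52 after mock lesion. The groups were far apart, and the change was 5.88 (SE 0.27, limma adjusted p = 4.96e-30), or 59.1-fold. Its 6 probe sets rose by unequal amounts, from 0.25 to 7.03. Ptgs2 (cyclooxygenase-2, the inducible enzyme of prostaglandin synthesis) stood at 7.86, 8.34 and 8.98 at the high dose, against 2.53, 2.98 and 3.24 after mock lesion, a change of 5.49 (SE 0.22, adjusted p = 5.99e-33). Every mock-lesion array was near the bottom of the scale for Ptgs2, and none of the high-dose arrays was. Sstr2, a somatostatin receptor, stood at 10.46, 11.14 and 11.39 at the high dose, against 4.32, 5.83 and 6.51 after mock lesion, a change of 5.32 (SE 0.27, adjusted p = 1.46e-27). Tinf2, a component of the shelterin complex at telomeres, stood at 10.75, 11.17 and 11.51 at the high dose, against 5.57, 6.06 and 6.64 after mock lesion, a change of 5.12 (SE 0.23, adjusted p = 4.78e-30), and its other probe set gave 4.80. For both genes the groups were more than 3 log2 units apart at their nearest arrays.

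The remaining genes of the 12 highest rose by 4.24 to 4.85, and the groups did not overlap for any of them. They were Serpinb2 (4.85), a plasminogen activator inhibitor, Mapkapk3 (4.79), a kinase downstream of p38 and ERK, Gpr3 (4.54), a receptor that raises cyclic AMP without a known need for ligand, Apold1 (4.52), Shisa2 (4.32), Tes (4.28), an actin-associated LIM protein, Nr4a3 (4.28), the third member of the Nr4a family, and Tgfb1 (4.24), the growth factor TGF-beta 1. Mapkapk3 was the least even of these in unlesioned mice, at 4.00 to 7.40, and its change in run 3 alone was 2.91. Ier3, an early response gene that regulates cell survival, rose by 4.24 as well, with the smallest SE among these genes (0.16).

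Upstream sequence is shown to let the reader see response elements beside the values, for genes of the 12 highest, the 12 lowest and the panel that hold, wholly upstream of a start, a whole cyclic AMP response element (CRE, TGACGTCA, bound by CREB) or an AP-1 site (TGANTCA, bound by Fos and Jun dimers), taken in order of their change up to 4 genes. Both strands were searched in the 250 bases before and 50 bases after each start in the RefSeq table (GRCm38.p6), and each whole CRE overlaps matches of the short CRE (TGACG) on both strands. Capitals mark the motif, and every stretch ends before the start of transcription. The stretches are Sstr2 at chr11:113619229-113619316 (plus strand), Tinf2 at chr14:55681826-55681913 (minus), Serpinb2 at chr1:107511289-107511375 (plus) and Th at chr7:142899996-142900080 (minus).
Sstr2: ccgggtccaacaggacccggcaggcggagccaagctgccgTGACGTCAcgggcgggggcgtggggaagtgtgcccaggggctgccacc
Tinf2: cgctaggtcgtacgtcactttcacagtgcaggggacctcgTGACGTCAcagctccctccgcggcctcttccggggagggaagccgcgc
Serpinb2: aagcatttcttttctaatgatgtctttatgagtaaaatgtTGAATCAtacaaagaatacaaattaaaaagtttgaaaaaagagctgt
Th: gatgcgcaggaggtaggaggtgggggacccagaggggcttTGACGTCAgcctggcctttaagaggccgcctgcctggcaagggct

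The whole CRE begins 58 bases before the start in Sstr2, 56 in Tinf2 and 45 in Th, and the AP-1 site of Serpinb2 begins 94 bases before the nearer of its annotated starts. Of the 10672 tested genes in the table, 3.48% held a whole CRE and 6.09% an AP-1 site. Among genes over 2-fold higher at the high dose the shares were 6.77% and 7.64% of the 458 genes in the table. Among genes over 2-fold lower they were 1.12% and 6.32% of the 538 genes in the table. Of 48 genes over 8-fold higher, 38 were in the table, and of these 5 held a whole CRE (13.2%) and 6 an AP-1 site (15.8%). Nr4a2 had no whole CRE in its window but 4 matches of the short CRE, which 34.7% of tested genes hold, and Fosb had 1 such match and an Egr site (GCGGGGGCG, held by 6.37%). A match is a description of these letters and was not tested as a binding site.

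Immediate early transcription factors stood above the unlesioned level almost as a block. Of 29 tested members 27 were called higher and none lower by limma, also at an unadjusted p under 0.05 (18.4% of all genes were called higher), with a median change of 2.01, against -0.04 over all genes. In 25 of the 29 the groups did not overlap (86.2%, beside 11.1% of all genes). The 2 members that were not called, Ier2 (0.11) and Klf2 (0.12), are named here after their values were seen. Fosb, the source of the FosB and ΔFosB subunits of AP-1, had a lowest, median and highest level of 11.21, 11.69 and 11.97 at the high dose, against 6.97, 7.74 and 8.36 after mock lesion, and rose by 3.93 (SE 0.21, adjusted p = 3.97e-26). Fos, its close relative, was more spread, at 7.19, 8.26 and 9.01 at the high dose and 3.74, 5.28 and 6.60 after mock lesion, and rose by 3.02 (SE 0.39). Even so the highest mock-lesion array lay below the lowest high-dose array for Fos. Nr4a1 (Nur77) rose by 2.62 (SE 0.26), Junb by 0.89 (SE 0.11) and Egr1 by 0.56 (SE 0.08). Egr1 was already near the top of the scale in unlesioned mice, at 11.93 to 12.35, and stood at 12.57 to 12.88 at the high dose.

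**Figure D2:**
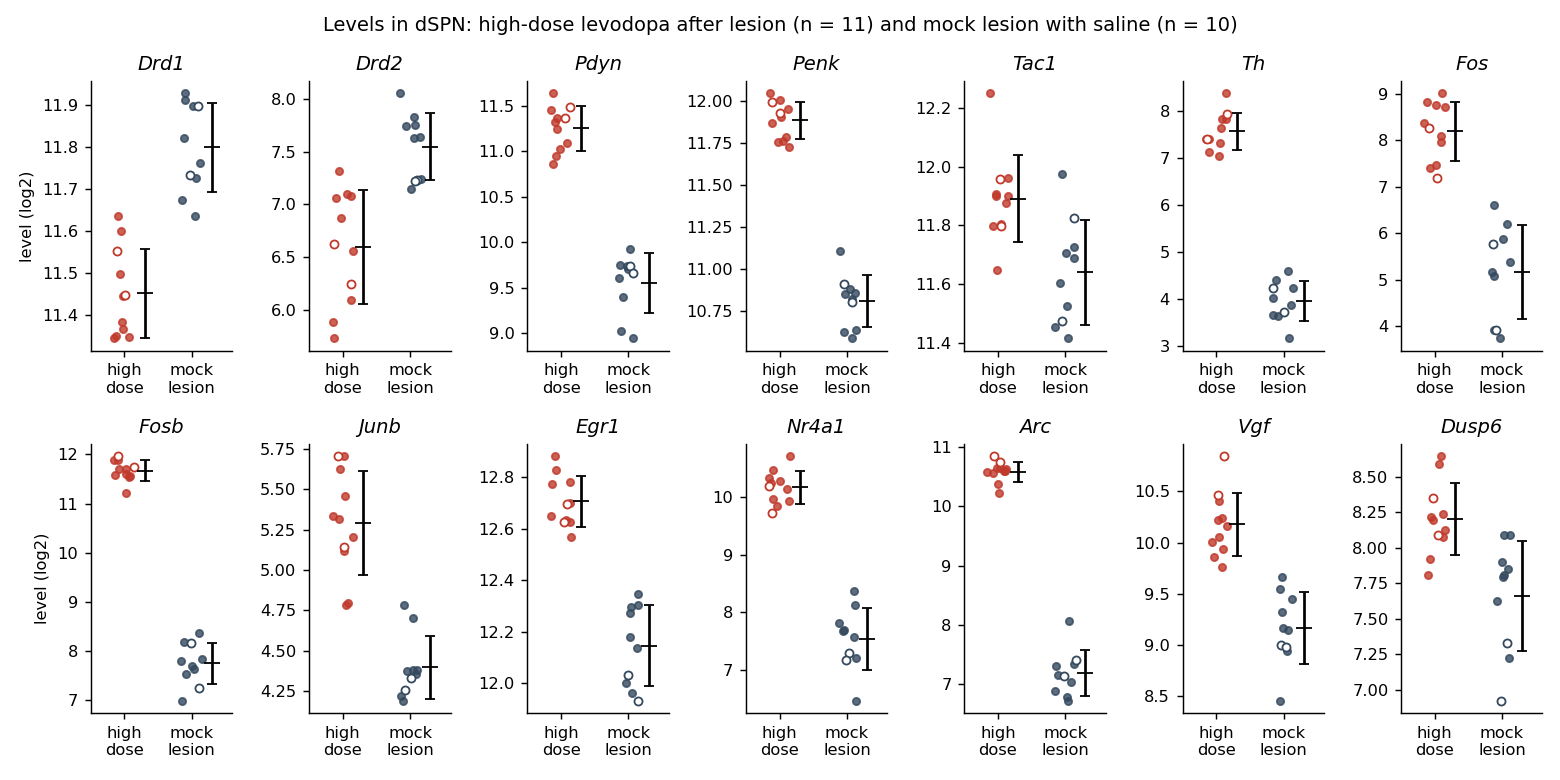
Level (log2, y axis) of 14 panel genes on each of the 11 high-dose arrays (red, left) and 10 mock-lesion arrays (dark blue, right), with the mean and SD in black and the arrays of run 3 as open circles. Fosb, Arc, Th and Penk separate without overlap, also within run 3, while Tac1, Junb, Dusp6 and Drd2 come close or overlap.

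Genes that such factors and CREB are known to drive in active neurons were also higher. Among 27 activity-regulated effectors 23 were called higher (85.2%, beside 18.4% of all genes) and none lower, adjusted or not, with a median of 2.29. The groups did not overlap in 19 (70.4%, beside 11.1% of all genes). Arc, a synaptic protein that removes AMPA receptors, was at 10.22, 10.59 and 10.85 at the high dose and 6.72, 7.15 and 8.07 after mock lesion, a rise of 3.40 (SE 0.19, adjusted p = 7.83e-26). Pcsk1, a prohormone convertase, rose by 4.13 (SE 0.32), and Inhba, the activin A subunit, by 3.93 (SE 0.24). Homer1 showed opposite changes by probe set. It encodes long scaffold forms and a short form, Homer1a, that activity induces. Of its probe sets 3 rose, by 1.69, 3.15 and 3.12, and 3 changed by -0.44, -0.42 and -0.51, each with an adjusted p under 0.05. Which form each probe set reads was not determined here.

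Feedback regulators of MAP kinase were more often higher than lower. Of 22 tested, 12 were higher (54.5%, beside 18.4% of all genes) and 2 lower (9.09%, beside 25%), with a median of 0.42. The dual-specificity phosphatases that switch off ERK led the rises, with Dusp4 at 3.49 (SE 0.27), Dusp14 at 3.00 (SE 0.19) and Dusp5 at 2.25 (SE 0.18), while Spred3, an inhibitor of Ras to ERK signalling, changed by -1.73 (SE 0.28). Dusp6 rose by 0.54 (SE 0.21, adjusted p = 0.0327), and its groups overlapped.

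Of 22 tested neuropeptides, granins and peptide-processing genes 12 were higher (54.5%, beside 18.4% of all genes) and 3 lower (13.6%, beside 25%), with a median of 0.49. Pdyn, the precursor of dynorphin and the opioid peptide of dSPN, was at 10.86, 11.32 and 11.64 at the high dose and 8.94, 9.68 and 9.93 after mock lesion, and rose by 1.71 (SE 0.23, adjusted p = 2.14e-09). Penk, the enkephalin precursor normally rich in iSPN, was at 11.73, 11.90 and 12.05 at the high dose and 10.59, 10.84 and 11.11 after mock lesion, and rose by 1.08 (SE 0.06, adjusted p = 6.37e-25). Neither gene overlapped between groups. Nts, the precursor of neurotensin, rose by 2.84 (SE 0.30), and Crh, the corticotropin-releasing hormone gene, rose by 2.42 (SE 0.64) with a wide spread and overlapping groups. The granin Vgf rose by 1.01 (SE 0.17). Tac1, the substance P precursor of dSPN, rose by only 0.25 (SE 0.10, adjusted p = 0.0279), its groups overlapped, and it was not called with run as a block (adjusted p = 0.262).

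Th, tyrosine hydroxylase, the rate-limiting enzyme of dopamine synthesis, was at 7.03, 7.39 and 8.37 at the high dose and 3.15, 3.93 and 4.59 after mock lesion, a rise of 3.62 (SE 0.27, adjusted p = 2.32e-19). It was the only called gene of 10 catecholamine genes (10%, beside 43.4% of all genes called in either direction). Of 6 tested markers of dopamine terminals and nigral neurons, Th and Nr4a2 were called (33.3%, beside the same 43.4%) and the other 4 were not. Neither share exceeds that of all genes. Ddc, Maob and Aldh1a1 lay near the bottom of the tested range in both groups, so their missing calls say little about these lists. Rises of Th and Nr4a2 in run 3 alone were 3.68 and 5.38.

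Receptors and their signalling machinery lay more often below than above the unlesioned level. Of 16 dopamine, muscarinic, opioid, serotonin and related receptors 9 were lower (25% of all genes were called lower) and 2 higher, with a median of -0.61. No adenosine receptor of the list was tested. With run as a block 6 were lower and 2 higher, and in run 3 alone 1 was lower and 2 higher. The 2 that rose were Sstr2 and Htr1b, a serotonin receptor of the Gi class, which stood at 11.91, 12.03 and 12.20 at the high dose and 9.70, 10.14 and 10.68 after mock lesion, a rise of 1.83 (SE 0.11). Oprm1, the mu opioid receptor, changed by -1.76 (SE 0.29) and Drd2 by -0.95 (SE 0.17). Drd1, whose promoter drives the tag, was at 11.34, 11.44 and 11.63 at the high dose and 11.63, 11.79 and 11.93 after mock lesion. The groups met without overlapping. The Drd1 change was -0.35 (SE 0.13, adjusted p = 0.0232), it lost its call with run as a block (adjusted p = 0.17), and with the glial marker mean as a covariate it was -0.08 (adjusted p = 0.647).

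Among 39 genes of cyclic AMP, G protein and DARPP-32 signalling 22 were lower (56.4%, beside 25% of all genes) and 8 higher (20.5%, beside 18.4%). The median was -0.21, and with run as a block 16 were lower and 4 higher. Adcy5, the main striatal adenylyl cyclase, was at 10.75 ± 0.18 at the high dose and 11.48 ± 0.14 after mock lesion (SD, n = 11 and 10), a limma change of -0.73 (SE 0.08, adjusted p = 7.87e-13). The groups did not overlap. Adcy9, another adenylyl cyclase, changed by -1.23 (SE 0.20) and Rapgef3, the cyclic AMP sensor Epac1, by -1.89 (SE 0.54), both with overlapping groups. The call for Rapgef3 was lost with the glial covariate (-1.31, adjusted p = 0.0696).

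Potassium channels were lower in 15 of 37 (40.5%) and higher in 4 (10.8%), beside 25% lower and 18.4% higher among all genes, with Kcng1 at -2.05 (SE 0.23), Kcnd3, an A-type channel, at -1.92 (SE 0.30) and Kcna2, an axonal delayed rectifier, at -1.76 (SE 0.12). Kcna2 was at 6.71, 7.21 and 7.85 at the high dose and 8.73, 9.04 and 9.18 after mock lesion, with no overlap. Sodium and calcium channels were lower in 8 of 21 (38.1%) and higher in 2, led by the T-type calcium channel Cacna1h (-1.87, SE 0.22), Scn3b (-1.06, SE 0.19) and Scn4b, the sodium channel subunit rich in striatum (-0.99, SE 0.07). GABA receptors and synthesis were lower in 9 of 16 (56.2%) and higher in 3, with Gabra5 at -0.90 (SE 0.18), Gabrd at -0.88 (SE 0.13; 1 of its 2 probe sets) and Gad1, which makes GABA, higher at 0.76 (SE 0.11). Glutamate receptors and scaffolds were split near the shares of all genes, 10 higher and 11 lower of 38 (28.9% lower), with Grm4, a presynaptic metabotropic receptor, at 1.48 (SE 0.14) and Grik3, a kainate receptor subunit, at -1.61 (SE 0.17; 1 of its 2 probe sets).

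**Figure D3:**
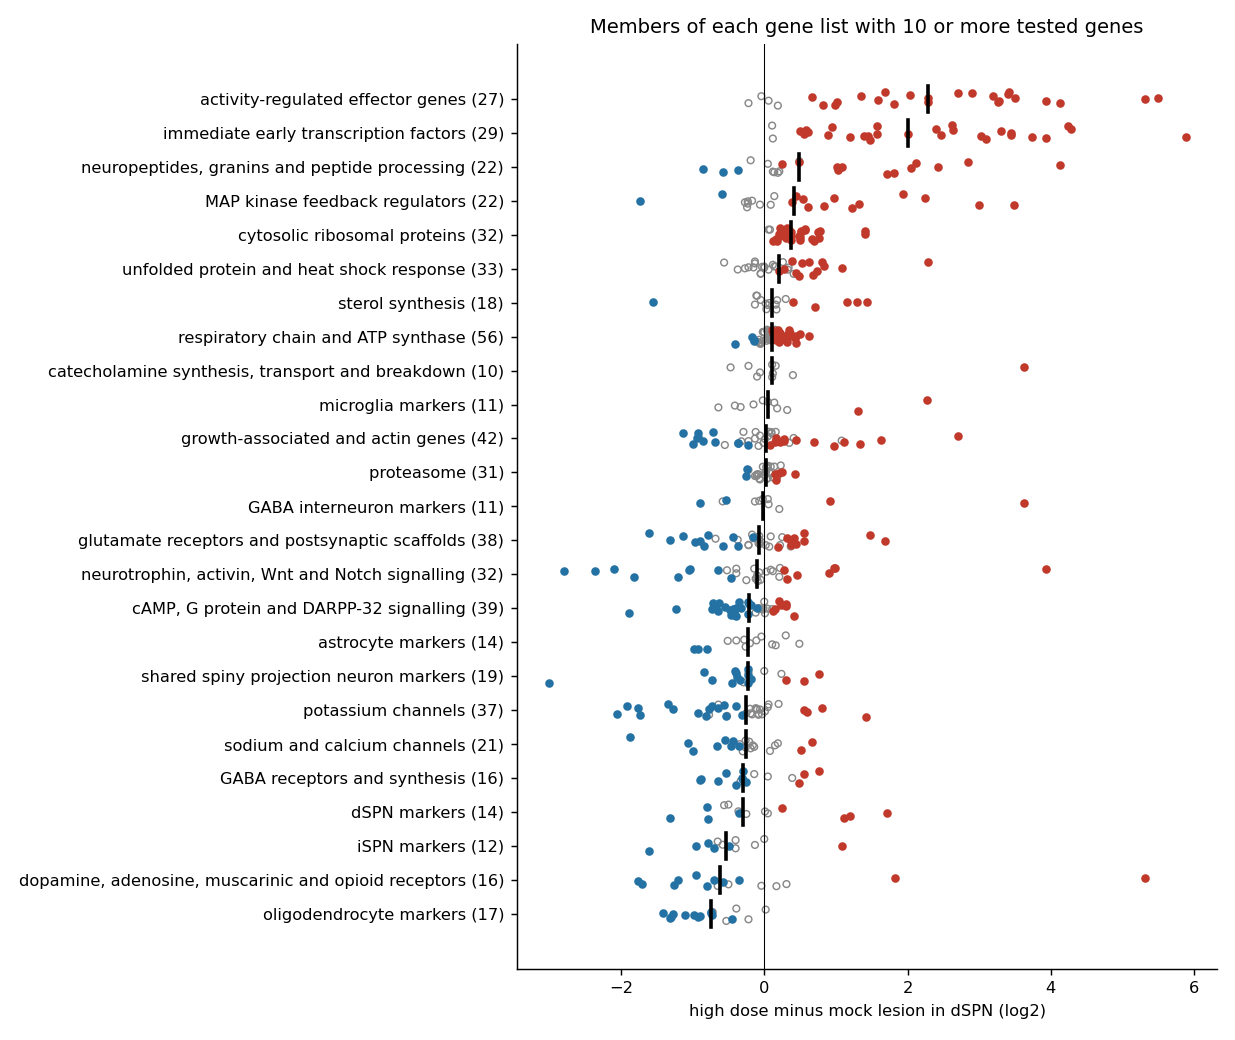
Difference between high-dose and mock-lesion dSPN (log2, x axis) for each tested member of the gene lists with at least 10 tested genes, 1 point a gene, with the number tested in brackets and the median as a black bar. Red and blue points are called higher and lower and open points are not called; the immediate early and effector lists have medians of 2.01 and 2.29, and oligodendrocyte markers lie lowest at -0.75.

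The identity genes of spiny neurons were lower in part. Of 19 shared spiny projection neuron markers 12 were lower (63.2%, beside 25% of all genes) and 3 higher (15.8%, beside 18.4%), with a median of -0.23. With run as a block 9 were lower and 3 higher. In run 3 alone limma called none, and 4 lower and 2 higher had an unadjusted p under 0.05. Falls were mostly small, with Ppp1r1b at -0.18 and Foxp1 and Pde10a at -0.22, and the 2 largest follow. Ddit4l, an inhibitor of mTOR signalling, was at 4.43, 6.38 and 7.20 at the high dose and 8.31, 9.31 and 9.58 after mock lesion, a change of -3.01 (SE 0.19, adjusted p = 7.9e-23). Strn, striatin, was at 10.08, 10.22 and 10.68 at the high dose and 10.82, 11.15 and 11.32 after mock lesion, a change of -0.84 (SE 0.09). The groups overlapped for neither. The dSPN markers split 4 higher and 4 lower of 14 (28.6% each), with Slc35d3, a transporter-like protein needed for D1 receptor trafficking in mice, at -1.31 (SE 0.23). Among 12 iSPN markers Penk alone rose and 5 were lower (41.7%).

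Other genes far below the unlesioned level were 2900026A02Rik (-2.87, SE 0.22), Wnt8b, a secreted Wnt ligand (-2.79, SE 0.41), Mir670hg, the host transcript of a microRNA (-2.67, SE 0.33), Fxyd7, a regulator of the sodium pump (-2.67, SE 0.22), and Zbtb46, a zinc finger factor (-2.60, SE 0.22). The 12 lowest ended with Trim66 (-2.37), Ccdc113 (-2.36), Notch2 (-2.36), Igfbp4, which binds insulin-like growth factors (-2.34), Gpr22 (-2.31) and Fam117a (-2.31). The groups overlapped for Notch2 and Fam117a and for no other gene of the 12 lowest. Of Notch2's pair of probe sets only 1 changed, the other lying at -0.20 (SE 0.20). In the list of neurotrophin, activin, Wnt and Notch genes 7 of 32 were higher (21.9%) and 9 lower (28.1%). These shares are near the 18.4% and 25% of all genes, and with run as a block 3 were higher and 8 lower. Growth-associated and actin genes were split 13 higher (31%) and 11 lower (26.2%) of 42, and with run as a block the split turned to 7 higher and 10 lower. Among them were the semaphorin receptor subunit Nrp1 at 2.70 (SE 0.26), its partner Plxna4 at 1.63 (SE 0.29) and Dpysl5 at 1.34 (SE 0.20).

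Ribosomal protein genes shifted by small amounts in 1 direction. Of 32 tested, 30 were higher (93.8%, beside 18.4% of all genes) and none lower, adjusted or not, with a median of 0.37. The groups did not overlap for 17 (53.1%, beside 11.1% of all genes). Rps7 was at 11.44, 11.73 and 11.80 at the high dose and 10.52, 10.91 and 11.08 after mock lesion, a rise of 0.78 (SE 0.07). Rpl14 rose by 1.41 (SE 0.21). Rps25 also gave 1.41 (SE 0.37) but overlapped and was not called with run as a block (adjusted p = 0.145). The median was 0.43 with run as a block, 0.38 in run 3 alone, where limma called no member but 9 had an unadjusted p under 0.05, and 0.34 after quantile normalization. TRAP enriches RNA through a tagged ribosomal protein, and whether the purification bears on these genes was not tested. Respiratory chain and ATP synthase genes were higher in 24 of 56 (42.9%) and lower in 4 (7.14%), with a median of only 0.11 and Atp5g1 leading at 0.62 (SE 0.09). The split was 11 higher and 7 lower with the glial covariate and 19 higher and 1 lower with run as a block. In the unfolded protein and heat shock list 13 of 33 were higher (39.4%) and none lower (2 at an unadjusted p under 0.05). Among them were the chaperones Dnajb5 at 2.29 (SE 0.12) and Hspa5, the endoplasmic reticulum chaperone BiP, at 0.84 (SE 0.13).

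Oligodendrocyte markers were lower in high-dose dSPN. Their mean over 17 genes was 5.51, 5.75 and 6.41 (lowest, median and highest array) at the high dose and 6.22, 6.60 and 7.10 after mock lesion. Of them 12 were lower (70.6%, against 25% of all genes) and none higher, led by Mag (-1.41), Mal (-1.31) and Ugt8a (-1.30). The list median was -0.75, beside -0.61 for the same comparison in iSPN. Against the same mock-lesion dSPN arrays it was -0.70 at the low dose and 0.17 after lesion with saline. In this purified RNA fewer oligodendrocytes and less RNA per oligodendrocyte cannot be told apart, and whether the purification bears on these markers was not tested. Astrocyte markers averaged 5.72, 6.18 and 6.69 at the high dose and 6.03, 6.41 and 6.80 after mock lesion, with 3 of 14 lower (Gja1, Slc1a2 and Slc1a3, at -0.80 to -0.98), a share of 21.4% that is no higher than that of all genes. With run as a block 8 of the 17 oligodendrocyte markers and none of the astrocyte markers were called by limma, and of the 14 astrocyte markers 1 higher and 2 lower had an unadjusted p under 0.05. With the mean of 31 glial markers as a covariate, 5153 genes were called (38.8%, 15.1% higher and 23.8% lower), 5754 of the 5764 kept their sign and 4606 their call, and the part of glial RNA in the other results was not tested further. Microglia markers averaged 4.82, 5.37 and 5.63 at the high dose and 4.79, 5.07 and 5.29 after mock lesion, and 2 of 11 rose (18.2%), which is near the 18.4% of all genes. These were lysosomal genes, Ctss (2.27, SE 0.26), which encodes cathepsin S, and Cd68 (1.31, SE 0.18). Neither overlapped between groups, while no other microglia marker tested was called and 1 had a lower level at an unadjusted p under 0.05.

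To see what the lesion alone had done, lesioned mice on saline were also set against the same mock-lesion arrays, in which 329 genes were called (2.48%), and low-dose mice likewise, in which 4004 were called (30.2%). Since these comparisons share the mock-lesion arrays, their values are only given side by side. Genes were taken by a rule on these calls, 8 to a class, so that their direction is no finding. With run as a block 20 of these 40 genes lost their lesion call.

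Some genes lay below the unlesioned level after lesion with saline and above it at the high dose. Nr4a3 was 5.86 ± 0.85 (SD, n = 11) in lesioned mice on saline, 11.41 ± 0.20 (n = 12) at the low dose and 11.75 ± 0.10 (n = 11) at the high dose, against 7.47 ± 0.91 (n = 10) in mock-lesioned mice. In the same order of lesion with saline, low dose and high dose, against mock lesion, Egr2, an immediate early zinc finger factor, stood at 6.09 ± 1.20, 10.45 ± 0.23 and 10.47 ± 0.15, against 7.83 ± 0.64. Midn, midnolin, which delivers immediate early proteins to the proteasome, stood at 6.02 ± 0.46, 9.64 ± 0.34 and 9.86 ± 0.14, against 7.30 ± 0.42. Nnat, neuronatin, a dSPN marker, stood at 9.42 ± 0.59, 11.46 ± 0.35 and 12.00 ± 0.06, against 10.80 ± 0.44. Fmnl1, Gadd45a, Ptges3l and Tnnt1 completed this class, with high-dose changes of 1.35 to 1.90. Gadd45a and Tnnt1 lost their lesion call with run as a block.

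Panel genes showed the same 4 levels in differing patterns. Vgf was 7.03 ± 0.68 after lesion with saline, 9.52 ± 0.28 at the low dose and 10.18 ± 0.31 at the high dose, against 9.17 ± 0.35 after mock lesion. Arc stood at 6.43 ± 0.36, 9.85 ± 0.38 and 10.59 ± 0.17, against 7.19 ± 0.39, and both genes were below mock lesion on saline and above it with levodopa. Penk was above mock lesion in all 3 lesioned groups, at 11.41 ± 0.17, 11.51 ± 0.14 and 11.89 ± 0.11, against 10.81 ± 0.16. Th was 4.71 ± 0.62, 6.20 ± 0.69 and 7.56 ± 0.39, against 3.94 ± 0.43, and its change after lesion alone was not called (0.77, adjusted p = 0.123).

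The opposite crossing, above mock lesion after lesion and below it at the high dose, took high-dose changes of -0.96 to -0.50 in its 8 genes. Cygb, cytoglobin, was 10.60 ± 0.18 in lesioned mice on saline, 9.67 ± 0.28 at the low dose and 9.07 ± 0.20 at the high dose, against 10.03 ± 0.21 in mock-lesioned mice. Dclk3, a striatal kinase, stood at 10.02 ± 0.16, 9.17 ± 0.18 and 8.73 ± 0.30, against 9.59 ± 0.24. Pkia, an inhibitor of protein kinase A, stood at 11.64 ± 0.13, 11.13 ± 0.23 and 10.66 ± 0.17, against 11.37 ± 0.16. Of the 8 genes (with Cys1, Elk1, Kcnj3, Vstm2a and Zfp462) 7 lost their lesion call with run as a block, and Vstm2a and Kcnj3 lost their high-dose call.

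Other genes stayed on 1 side. Amhr2, the receptor of anti-Müllerian hormone, was 7.44 ± 0.63 after lesion with saline, 7.57 ± 0.72 at the low dose and 7.88 ± 0.49 at the high dose, against 5.09 ± 0.56 after mock lesion. Sox11, a transcription factor of immature and regrowing neurons, stood at 9.64 ± 0.54, 9.53 ± 0.31 and 9.43 ± 0.24, against 8.45 ± 0.29. For both, the mean level at each dose lay within 1 SD of the mean with lesion alone. Rgcc, a cell cycle regulator, behaved otherwise: it was 6.31 ± 0.66 after lesion, 8.74 ± 0.34 at the low dose and 8.82 ± 0.23 at the high dose, against 5.47 ± 0.32. The class also held 6820408C15Rik, Ctss, Epb41l4b, Fst and Pafah1b3, and 4 of the 8 (Ctss, Epb41l4b, Fst and Rgcc) lost their lesion call with run as a block. Below the unlesioned level were Ifi27l2a, an interferon-induced gene, at 3.71 ± 0.44, 3.87 ± 0.45 and 3.60 ± 0.41, against 5.59 ± 0.52, and Gask1b, a Golgi protein, at 6.64 ± 0.47, 6.29 ± 0.42 and 5.69 ± 0.53, against 7.94 ± 0.28. Mir670hg stood at 4.52 ± 0.87, 4.24 ± 0.80 and 4.01 ± 0.78, against 6.68 ± 0.36. Itga9, Phex, Slc9a5, Spred3 and Wnt8b also stayed below, and Itga9 and Wnt8b lost their lesion call with the block.

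**Figure D4:**
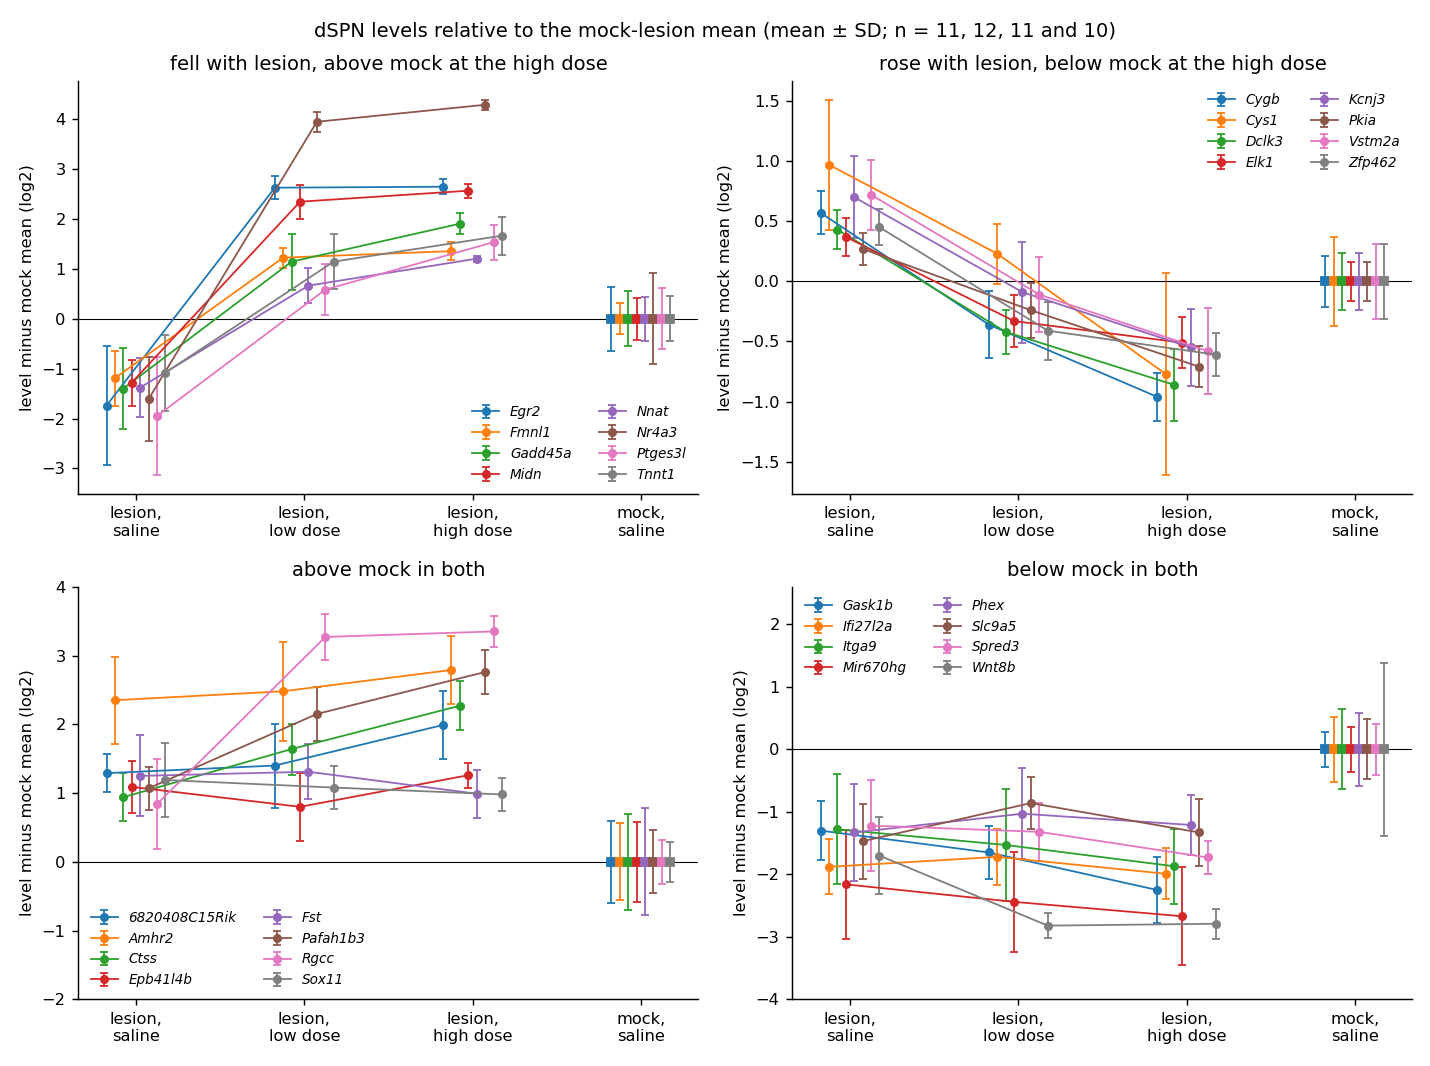
Mean level relative to the mock-lesion mean (log2, y axis, ± SD) in dSPN of lesioned mice on saline (n = 11), on the low dose (n = 12) and on the high dose (n = 11), and of mock-lesioned mice (n = 10), for 4 classes of 8 genes chosen on these values. Nr4a3 lies at -1.61 after lesion and 4.28 at the high dose, and Mir670hg lies at -2.17 after lesion and -2.67 at the high dose.

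A last class was called after lesion and had a 95% interval of the high-dose change within -0.5 to 0.5. Bcl2, an inhibitor of apoptosis, was 10.52 ± 0.27 after lesion with saline, 11.35 ± 0.15 at the low dose and 11.23 ± 0.16 at the high dose, against 11.23 ± 0.16 after mock lesion, although its 2 other probe sets rose by 0.64 and 0.36 at the high dose. Pea15a, an ERK-binding protein, was 10.82 ± 0.22, 10.20 ± 0.18 and 9.98 ± 0.13, against 9.78 ± 0.29. H1f2, a linker histone, was 9.15 ± 0.46, 9.51 ± 0.21 and 9.98 ± 0.21, against 9.93 ± 0.22, although 1 of its 2 other probe sets changed by -0.40 (adjusted p = 0.018). Another probe set of Macrod2, in the same class, changed by -1.09 (adjusted p = 0.00372). The high-dose and mock-lesion ranges overlapped for all 8 genes of the class, among them Camk1g, Macrod2, Plpp6, Samd14 and Srebf2, and those 5 lost their lesion call with run as a block.

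The same comparison in iSPN shares no array with dSPN. There 2482 genes were called (18.7%), and the change differed between lines for 2965 genes (22.3%). No run holds both lines, so levels of the lines cannot be told apart from run, and each line has 1 run with both groups. In iSPN this is run 6, with 8 high-dose arrays but only 1 mock-lesion array, while run 5 holds the other 9 mock-lesion arrays. With run as a block the counts were 295 and 850. That fit covers all 77 arrays, so lesion-saline and low-dose arrays that share runs with these groups also enter its estimates. Serpinb2 rose by 4.85 (SE 0.22) in dSPN and by 1.07 (SE 0.24) in iSPN, and the lines differed by 3.77 (SE 0.32, adjusted p = 6.03e-15). Tgfb1 rose by 4.24 in dSPN, against a change of 0.47 in iSPN that was not called (adjusted p = 0.383), and the lines differed by 3.77 (SE 0.47). Tinf2 rose by 5.12 in dSPN and 1.49 in iSPN, with 3.63 (SE 0.35) between them, followed by Snx31 (3.41), Ubash3b (3.22) and Shroom3 (3.22). Mir670hg went opposite ways: it fell to 3.12 to 5.36 in high-dose dSPN, against 6.22 to 7.24 in mock-lesion dSPN, and stood at 6.15 to 7.93 in high-dose iSPN, against 3.67 to 6.30 in mock-lesion iSPN. The difference for Mir670hg was -4.67 (SE 0.49, adjusted p = 9.29e-12). Rnd1 (-3.44), Xrcc3 (-2.54), Musk (-2.52), Parp3 (-2.40) and Fam117a (-2.33) were the rest of the 6 lowest differences. Of these, Rnd1 (0.34) and Parp3 were not called in dSPN itself. With run as a block 9 of the 12 genes with the highest and lowest differences kept a called difference, and Shroom3, Parp3 and Fam117a did not.

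Of the 14 panel genes 9 differed between lines. Arc rose by 3.40 in dSPN and 1.39 in iSPN (difference 2.01, SE 0.28) and Th by 3.62 in dSPN and 1.63 in iSPN (difference 1.99, SE 0.39). Penk rose by 1.08 in dSPN and was 0.18 (adjusted p = 0.0545) in iSPN, where it stood at 12.72 to 13.02 after mock lesion, a difference of 0.90 (SE 0.09). Pdyn rose by 1.71 in dSPN and 1.10 in iSPN, and this difference was not called (0.61, SE 0.34, adjusted p = 0.198). The difference for Fos, 1.02 (SE 0.58), was not called either (adjusted p = 0.213). Egr1 went opposite ways, at 0.56 in dSPN and -0.26 (adjusted p = 0.035) in iSPN, and so did Dusp6, at 0.54 in dSPN and -0.87 (adjusted p = 0.00423) in iSPN. With run as a block Arc, Th and Penk kept a called difference between lines, and Drd2, Dusp6, Egr1, Fosb, Junb and Nr4a1 did not.

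**Figure D5:**
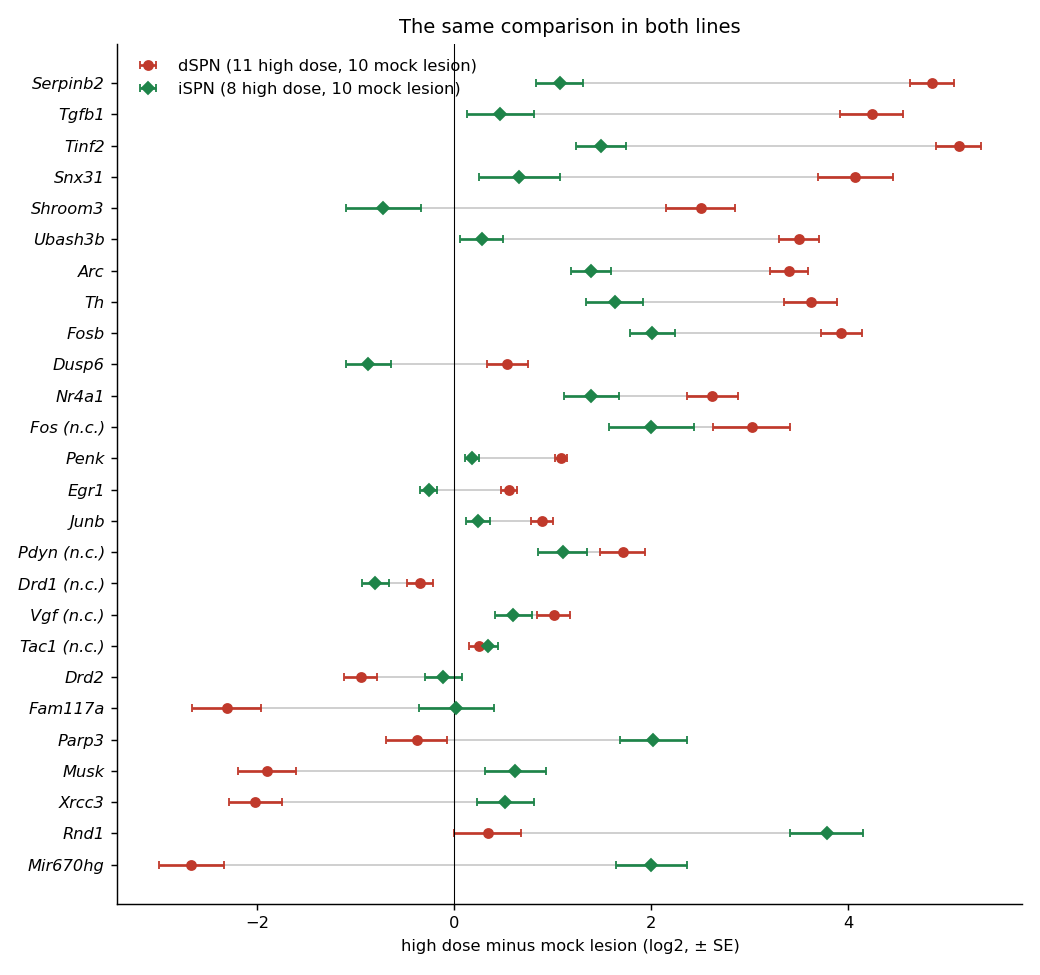
High dose minus mock lesion (log2, x axis, ± SE) in dSPN (red circles) and iSPN (green diamonds) for the 12 genes with the highest and lowest difference between lines and the 14 panel genes, ordered by that difference; n.c. marks a difference that was not called. Serpinb2 is at 4.85 in dSPN and 1.07 in iSPN, and Mir670hg is at -2.67 in dSPN and 2.00 in iSPN.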

How the data were processed

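Affymetrix arrays of TRAP RNA from 77 mice were read from the authors' deposited table of log2 values. The submitters' processing notes name RMA and affy, and no versions are given in the sources used here. The deposited table holds 45101 probe sets, with values between 1.34 and 14.45, and the median of an array lay between 4.31 and 4.42. No detection limit was set.

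Of the probe sets 34958 carried 1 gene symbol in the platform annotation, 932 several and 9211 none, and the last 2 kinds were left out. A gene is its probe set with the highest mean, and 13271 of 18194 genes above the 40th percentile (3.55) were tested. Samples were grouped by their titles and source labels. limma 3.58.1 (R 4.3.3, lmFit and eBayes, two-sided) was fitted to all 77 arrays in 8 groups with no covariate (69 residual degrees of freedom), with Benjamini-Hochberg adjustment over all genes. Nothing but separate mice per array is stated of the replicates.

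On simulated data for high dose against mock lesion, over 13271 genes, 32 of 67 genes changed by 0.5, 58 of 67 changed by 1 and 66 of 66 changed by 2 (log2) were called, with 10 false calls among 13071 unchanged genes. The simulated arrays were independent, held no run effect and had far fewer changed genes than were called here. The simulation therefore cannot show false calls due to run. Alternatives took run as a fixed or a random block, run 3 alone, subsets of the arrays, array weights, other filters, quantile normalization, a trend and robust prior, the mean of probe sets, and the mean of 31 glial markers as a covariate. Lists (29) were described by counts and medians, with no list test.

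Named genes are the 12 highest and 12 lowest called changes, up to 3 called members per list with the largest change, a panel of 14 genes, up to 8 genes per class of lesion and high-dose calls, and the 6 highest and 6 lowest called differences between lines. The members, lists and rules were chosen with earlier results of these data known. The RefSeq promoter table (GRCm38.p6) held 33 of the 38 genes searched for a motif.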

Additional observations from a re-analysis of the deposited data

Results flagged for a closer look

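Only the mock-lesion dSPN group, with 10 arrays, was examined for a single array far from the rest. The critical values used stop at 10 arrays, so the dSPN groups of 11 and 12 arrays were left out, and no iSPN group was examined. The mock-lesion dSPN group held such an array in 13 of 147 gene and list levels, where chance alone gives about 1 in 20. An array stood above the others for 6820408C15Rik (6.81, next 5.68), Arc (8.07, next 7.41) and Oprm1 (7.55, next 6.74). An array stood below the others for Cd68 (7.79, next 8.44), Ctss (3.79, next 4.99), Ddit4l (8.31, next 8.93), Fmnl1 (8.64, next 9.16), Fxyd7 (7.49, next 8.09), Kcna2 (8.73, next 8.97), Psmd12 (9.60, next 9.84), Rps7 (10.52, next 10.79), Slc1a2 (7.78, next 8.61) and Trim66 (4.66, next 5.55). For 6820408C15Rik, Ctss, Ddit4l, Fmnl1 and Fxyd7 the array was 1 of the 2 mock-lesion arrays of run 3.

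Of the 26 genes read here, 12 were taken as the highest and lowest called differences between lines, so their calls were fixed in advance. Only the 14 panel genes could come out either way, and 9 of them were called, beside 22.3% of all genes. The difference of high dose minus mock lesion differed between lines (limma interaction, adjusted p from 6.03e-15 to 0.0118 over these genes) for 21 of 26 genes read. It was higher in dSPN for Serpinb2 (3.77), Tgfb1 (3.77), Tinf2 (3.63), Snx31 (3.41), Ubash3b (3.22), Shroom3 (3.22), Arc (2.01), Th (1.99), Fosb (1.92), Dusp6 (1.41), Nr4a1 (1.23), Penk (0.90), Egr1 (0.82) and Junb (0.66). It was lower in dSPN for Mir670hg (-4.67), Rnd1 (-3.44), Xrcc3 (-2.54), Musk (-2.52), Parp3 (-2.40), Fam117a (-2.33) and Drd2 (-0.85). Of these, Rnd1 (0.34) and Parp3 were not called in dSPN itself. With run as a block 9 of the 12 genes outside the panel kept a called difference, as did Arc, Th and Penk, and Shroom3, Parp3, Fam117a, Drd2, Dusp6, Egr1, Fosb, Junb and Nr4a1 did not.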

How the results depend on the processing

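The 5764 calls of high dose against mock lesion in dSPN ranged from 3910 to 6648 over all alternatives except run 3 alone, which has 2 arrays a group and gave 286. The iSPN count (2482) was 295 and the difference between lines (2965) was 850 with run as a fixed block. For lesion against mock lesion (329) the count was 88 with the fixed block, 554 with only the dSPN arrays and 776 with array weights, and for low dose against mock lesion (4004) it was 2599 with the fixed block. The causes were not tested. Of 126 called named genes 126 kept their sign with the block, in run 3 and with the glial covariate, and 112, 44 and 114 kept their call.

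Signs turned for some genes, of which Psmd7 alone is called in high dose against mock lesion. With the fixed block these were Bcl2 (0.05), Macrod2 (0.06) and Srebf2 (-0.01), and with the random block Samd14 (-0.01). In run 3 they were Bcl2 (0.13), Camk1g (0.02), Parp3 (0.23), Pea15a (-0.14) and Srebf2 (-0.15). With the mean of probe sets they were Bcl2 (0.33, adjusted p = 0.0221), H1f2 (-0.11), Plpp6 (0.00), Psmd7 (0.03) and Srebf2 (-0.12). The glial covariate turned Bcl2 (0.18), H1f2 (-0.12), Plpp6 (-0.08) and Srebf2 (-0.06), and quantile normalization Camk1g (0.06). No paired analysis was possible because the numbers in the titles are unique to each array.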

Other observations

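Sterol synthesis was uneven in high-dose dSPN, with 5 of 18 genes higher (27.8%) and 1 lower (5.56%) than after mock lesion. Among all genes 18.4% were higher and 25% lower. Pmvk, phosphomevalonate kinase, rose by 1.43 (SE 0.13, limma adjusted p = 7.75e-16) and Sc5d by 1.29 (SE 0.26), while Lss, lanosterol synthase, fell by 1.55 (SE 0.19). Proteasome subunits hardly moved, with 5 of 31 higher (16.1%) and 2 lower (6.45%), both below the shares of all genes. Their median was 0.03, led by Psmc6 (0.43), Psmd7 (-0.26) and Psmd12 (0.25). With the glial covariate the split was 1 higher and 6 lower, and with run as a block 3 proteasome and 3 sterol genes were higher. None of 7 endothelial and mural markers, 6 cholinergic interneuron markers or 3 cortical pyramidal neuron markers was called by limma in this comparison, and 1 of them, a cortical marker, had an unadjusted p under 0.05. Among 11 GABA interneuron markers Th and Elfn1 (0.92) rose and Lhx6 (-0.89) and Kcnc1 (-0.54, named after its value was seen) were lower. That is 18.2% each way, no higher than the shares of all genes. Elfn1 and Lhx6 lost their call with run as a block (adjusted p = 0.199 and 0.287), and so did Psmd7 (0.29) and Psmd12 (0.175).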
